A study of Mus musculus with 12 samples.

Results

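The expression profile described here is that of cultured fibro/adipogenic progenitors (FAPs) of mouse skeletal muscle at baseline, that is, after transfection with a control oligonucleotide and without added growth factor. It rests on the 2 arrays labelled control AMO with 0 PDGF-AA, of 12 arrays in all, and on absolute levels and ranks, not on a contrast. Members are the transcript clusters (the probe sets of the array, each built for 1 transcribed locus) to which the platform annotation gives exactly 1 gene symbol. They number 21789 of 35556 clusters and stand for 19938 genes. A gene with several clusters is described by the one that is brightest over the 12 arrays.

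FAPs came from the uninjured hindlimb muscles of wild-type male C57Bl/6 mice aged 8 to 12 weeks, and each replicate pooled cells of 2 mice. The cells were expanded for 2.5 days in medium with serum and then received 10 µM of an antisense oligonucleotide (AMO) in 2 rounds of 48 hours each. The 6 groups of 2 arrays are control AMO without PDGF-AA (the baseline), and then pA AMO without PDGF-AA, 5'ss AMO without PDGF-AA, and control AMO, pA AMO and 5'ss AMO with PDGF-AA, whose dose the labels write as 50 uM. The title of the series concerns an intronic polyadenylation site of the PDGF-AA receptor gene Pdgfra. The baseline cells were therefore transfected, kept in Opti-Mem for the last 48 hours, and the 12 arrays hold no sample of fresh or untransfected FAPs.

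FAPs are mesenchymal cells of the space between muscle fibres, recognised by the surface proteins PDGFRα and Sca-1. After injury they multiply, secrete factors that help muscle stem cells and are then cleared. In degenerating muscle they can persist and give rise to matrix-producing fibroblasts or to fat cells. PDGFRα is a receptor tyrosine kinase, and its ligand PDGF-AA drives proliferation and matrix production in such cells.

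All values are log2 expression values, and pairs of values give baseline replicate 1 and then replicate 2. On this scale the median cluster lay at 6.72 and 6.68, the top 10% began at 9.62 and 9.66, and the brightest cluster stood at 13.96 and 13.98. A no-signal mark was set on each array at the 95th percentile of 1218 clusters of olfactory, vomeronasal and trace-amine receptors, genes of sensory neurons, which gave 5.56 and 5.51. Of the 19938 genes, 13668 (68.6%) lay above the mark on both arrays, 9668 (48.5%) in the top 50%, 4763 (23.9%) in the top 25% and 1783 (8.94%) in the top 10% of both. A probe set's brightness depends on its probes as well as on the amount of transcript, so a difference in rank between 2 genes is no measure of a difference in transcript number. Lying above the mark does not by itself show expression either: 7 of 21 lymphocyte and granulocyte markers did so, and the highest of them, Cd3e of the T-cell receptor complex, had a percentile rank of 46.8.

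The 2 baseline arrays correlated at a Pearson r of 0.996 and a Spearman rho of 0.996 across the 21789 clusters of 1 symbol, which are not independent replicates. Their median absolute difference was 0.11. Of the 1783 genes in the top 10% of both, 1613 (90.5%) were in the top 10% of all 12 arrays. The label of male mice was checked with sex-linked genes: the Y-linked Eif2s3y (7.98 and 8.05), Uty and Kdm5d lay above the mark, and Xist, the RNA that silences an X chromosome in females, lay below it at 3.76 and 3.49.

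**Figure D1:**
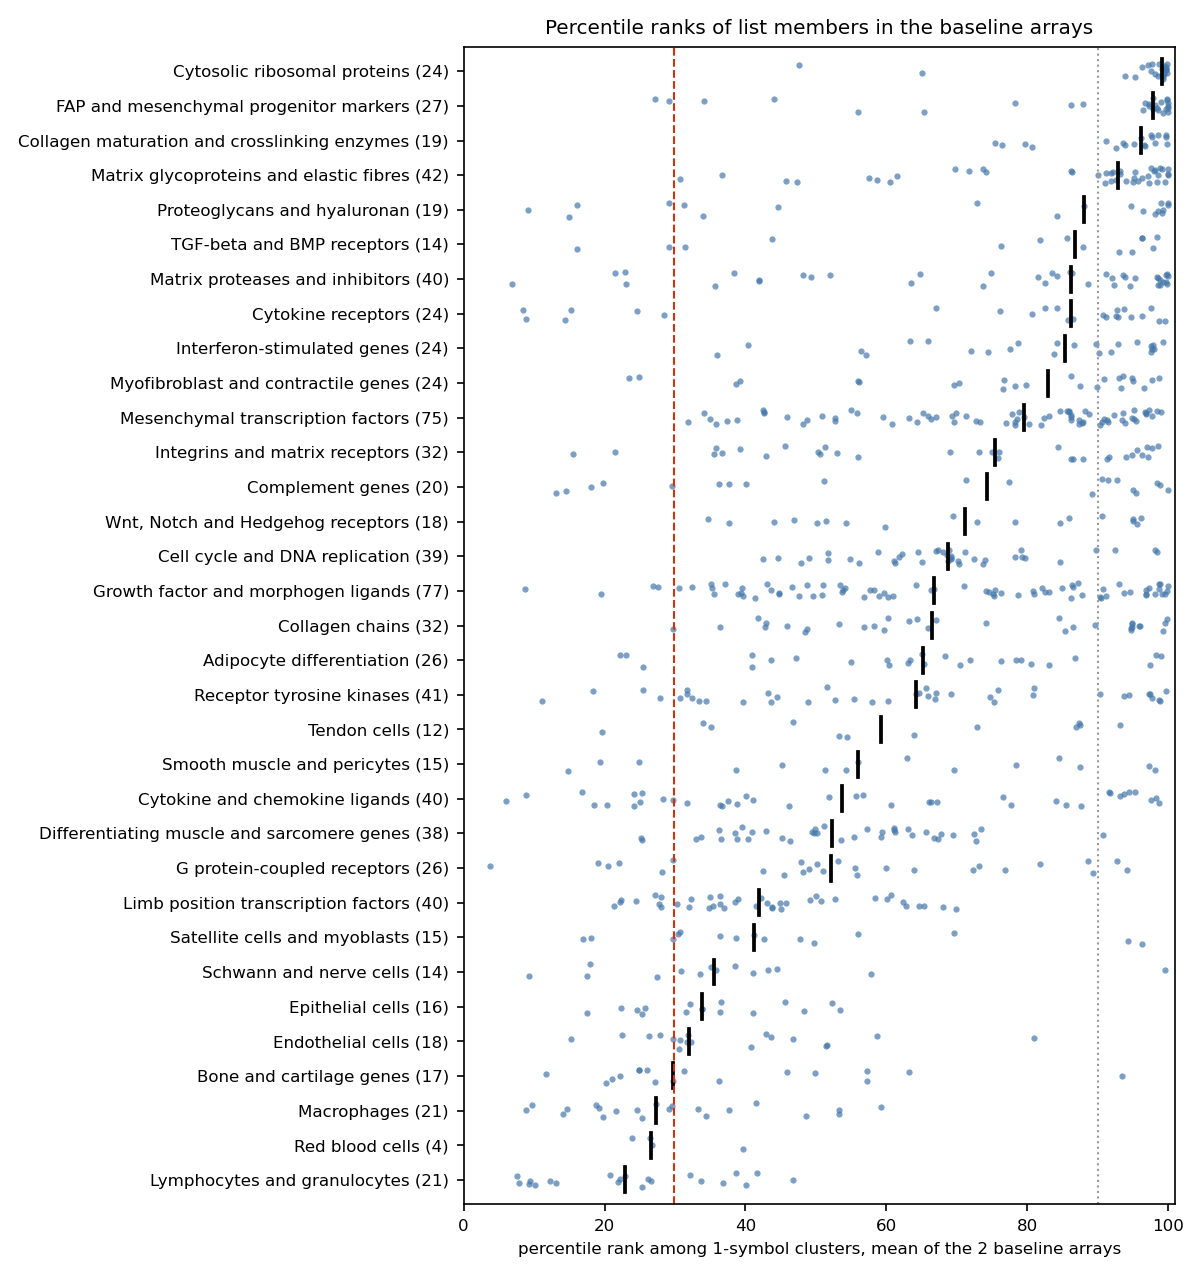
Percentile rank of every list member among clusters of 1 symbol (x axis, mean of the 2 baseline arrays), with 1 gene list a row and the number of genes measured in brackets. Points are genes, black bars are list medians, the dashed line is the no-signal mark and the dotted line the start of the top 10%. Ribosomal proteins, FAP markers and collagen-processing enzymes have medians of 99.1, 97.8 and 96.1, and lymphocyte and granulocyte markers a median of 22.9.

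Most listed markers of the label ranked high. Of 27 FAP and mesenchymal progenitor markers, 25 lay above the mark and 18 in the top 10% of both arrays, against 68.6% and 8.94% of all genes. All 18 were in the top 10% of the 12 arrays. The list was chosen with earlier results of these data known and includes general mesenchymal genes, so these counts do not test the label. The list had a median percentile rank of 97.8, against 49.8 for all genes. Pdgfra measured 12.75 and 12.75, a percentile rank of 99.7 and the 51st brightest gene of the baseline arrays. Cd34, a sialomucin of many progenitor cells, measured 11.62 and 11.64, and Col1a1, a chain of type I collagen, 12.38 and 12.07. Dcn, the small proteoglycan decorin, measured 13.23 and 13.43. Ly6a, which encodes Sca-1, has no cluster of exactly 1 symbol and was not analysed here, so the fifth of the defining markers was not checked.

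The 4 highest markers were Fn1 (fibronectin, 13.56 and 13.65), Vim (the intermediate filament vimentin, 13.31 and 13.34), Dcn and Fbln2 (fibulin 2, 13.32 and 13.24). The transcription factor Osr1, which marks embryonic and activated adult FAPs, measured 11.15 and 11.12. Markers that sort fibroblasts into subsets stood lower: Thy1 at 8.63 and 8.57, Dpp4 at 7.52 and 7.96, and Pi16 at 6.96 and 7.26. Dpp4 and Pi16 label a stem-like subset of fibroblasts in several mouse tissues. The 2 lowest, Nt5e (CD73, 5.36 and 5.61) and Bst1 (5.47 and 5.28), did not lie above the mark on both arrays. In the plot of marker values, 13 of 27 markers were higher in replicate 1 and 14 in replicate 2, with a median absolute difference of 0.09.

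**Figure D2:**
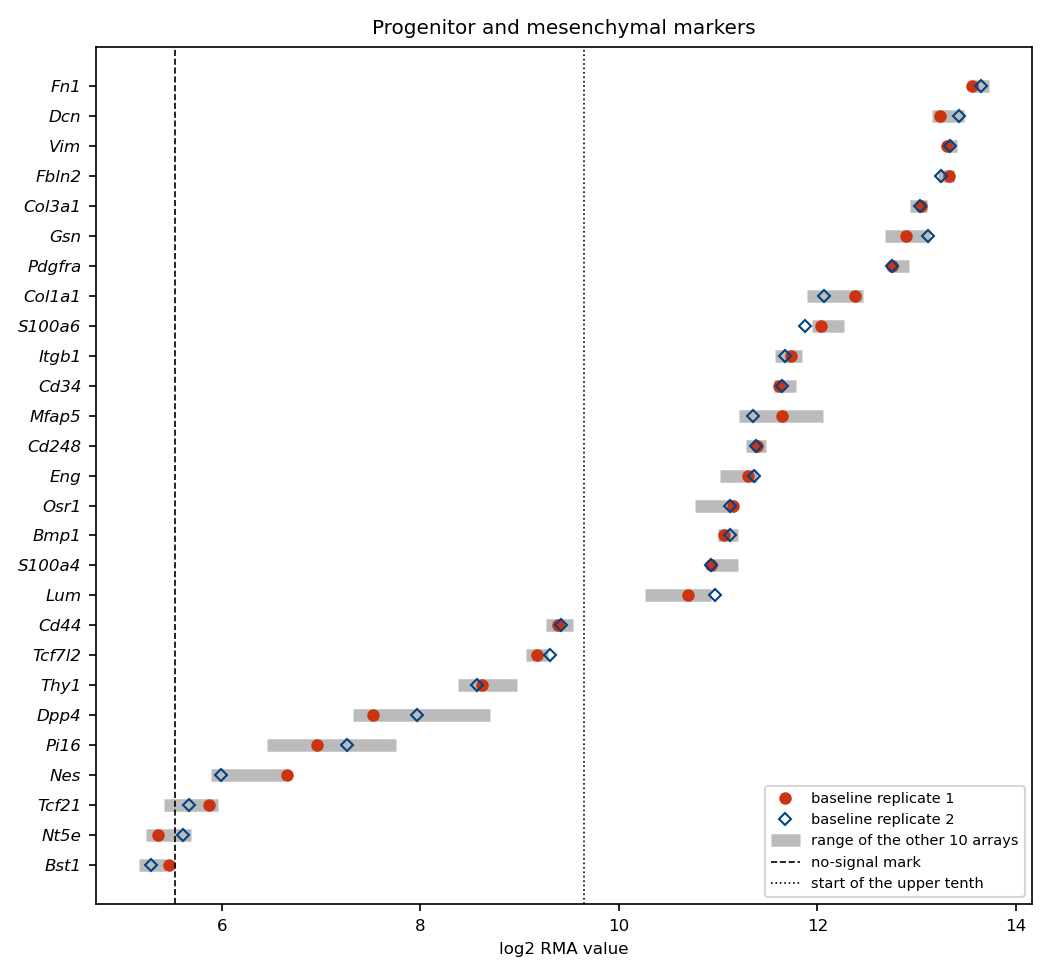
Log2 expression value (x axis) of the 27 FAP and mesenchymal progenitor markers, ordered by their baseline mean. Filled circles are baseline replicate 1, open diamonds baseline replicate 2, and grey bars span the lowest to the highest of the other 10 arrays. Pdgfra lies at 12.75 on both baseline arrays, inside the range of 12.72 to 12.92, and none of the markers has both baseline arrays outside the range of the others.

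Across the other 10 arrays Pdgfra lay between 12.72 and 12.92, with a median of 12.81. The 4 arrays with 5'ss AMO (12.84 to 12.92) lay above the 8 others (12.72 to 12.81), a pattern noticed after the values were seen and not tested here. The baseline mean differed from the mean of the other 5 groups by -0.07 ± 0.07 (SE of a limma model, 2 and 10 arrays, Benjamini-Hochberg adjusted p = 1.00). With the replicate number as a block in the model, the adjusted p of this difference was 0.950 in limma. The Pdgfra cluster sums probes along the locus, and no result for single probes, which could separate transcripts that end in an intron, was analysed here. The sequence before the annotated start of Pdgfra is shown because this gene encodes the receptor of PDGF-AA and is the one that the series title concerns. It lies on the plus strand at chr5:75152101-75152250 of GRCm38.p6, as RefSeq annotates it, and runs 5′ to 3′ to the base before the start.

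Pdgfra: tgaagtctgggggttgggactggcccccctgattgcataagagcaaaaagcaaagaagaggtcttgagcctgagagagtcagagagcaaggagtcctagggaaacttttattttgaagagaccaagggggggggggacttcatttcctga

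Neither TATAAA in the last 40 bases nor CCAAT or GGGCGG on either strand of the 250 bases before the start was found at Pdgfra. Those letters were searched in the same window of 15614 measured genes with a RefSeq promoter, and 3.15% held TATAAA, 38.8% CCAAT and 49.3% GGGCGG. No match says only that these letters are not in this window.

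Receptor tyrosine kinases were read as the receiving end of growth factor signals. Of 41 measured, 37 lay above the mark and 8 in the top 10%. After Pdgfra came Ddr2, a receptor for fibrillar collagen (11.79 and 11.91), Egfr, the receptor for epidermal growth factor (11.78 and 11.82), and Fgfr1, the main fibroblast growth factor receptor of mesenchyme (11.23 and 11.36). Axl, the receptor of Gas6, measured 11.26 and 11.12, and Pdgfrb, which binds PDGF-BB, 11.12 and 11.07. Both PDGF receptors were thus in the top 10%. At the other end, Erbb4 (4.73 and 4.84) and Epha5 (4.08 and 4.24), receptors for neuregulins and ephrins, lay below the mark.

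Ligands are given beside their receptors, each as its own probe set's value. Among the PDGF ligands, Pdgfa measured 8.47 and 8.28, Pdgfd 8.18 and 8.03, Pdgfc 6.96 and 7.02, and Pdgfb 6.32 and 6.27. Pdgfa, the subunit of PDGF-AA, thus had a percentile rank of 75.1 in cells given none of it. Gas6, the ligand of Axl, ranked at 99.8 (12.78 and 12.91), and Igf1 (9.96 and 9.66) and its receptor Igf1r (9.75 and 9.64) ranked at 91.1 and 90.4. For Csf1, Kitl and Vegfd the ligand lay in the top 10% and its receptor near the mark. Csf1, the growth factor of macrophages, measured 12.04 and 12.07, and its receptor Csf1r 5.81 and 5.76. Kitl, stem cell factor, measured 10.18 and 10.26, and its receptor Kit 5.69 and 5.58. The vascular growth factor Vegfd measured 11.94 and 11.94, and its receptor Flt4 5.60 and 5.55. Kdr, another receptor of vascular growth factors, measured 5.42 and 5.42. Hgf, which activates muscle stem cells, measured 9.27 and 9.40, with its receptor Met at 6.89 and 6.88.

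Of 77 growth factors and morphogens, 72 lay above the mark and 18 in the top 10%. The 4 highest were Fstl1, a secreted follistatin-like glycoprotein (13.22 and 13.14), Gas6, Sfrp1, a secreted Wnt antagonist (12.59 and 12.70), and Csf1. Fgf7, which acts on epithelia, measured 11.84 and 11.82, and Sfrp2 11.46 and 11.53. Fst, the activin and myostatin antagonist follistatin through which FAPs are known to promote muscle growth, measured 9.74 and 9.68. Wnt ligands ranked lower: Wnt16 (8.56 and 8.26) was the highest of them and Wnt5a (7.76 and 7.93) the next. The 2 lowest of the list were Bmp2 (4.84 and 4.89) and Mstn, myostatin (4.03 and 3.75), both below the mark. Grem1, a BMP antagonist that marks stromal subsets in other tissues, measured 5.58 and 5.22.

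Receptors of the TGF-beta and BMP family had 12 of 14 members above the mark and 6 in the top 10%. Highest were the co-receptors Tgfbr3 (betaglycan, 11.52 and 11.71) and Eng (endoglin, 11.30 and 11.37), followed by Bmpr2 (10.77 and 10.78) and Tgfbr2 (10.79 and 10.76). Lowest were Bmpr1b (5.57 and 5.41) and Acvr1c (4.47 and 4.73). The 3 TGF-beta ligands held ranks of 75.4 to 80.8, with Tgfb1 at 8.79 and 8.76, Tgfb2 at 8.36 and 8.56, and Tgfb3 at 8.43 and 8.35.

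All 18 Wnt, Notch and Hedgehog receptors lay above the mark, and 5 in the top 10%. These were the Wnt co-receptor Lrp6 (10.75 and 10.77), the Frizzled receptors Fzd1 (10.62 and 10.56) and Fzd4 (10.33 and 10.59), the Hedgehog transducer Smo (10.47 and 10.46) and Notch2 (9.68 and 9.77). Fzd10 (6.13 and 5.79) and Fzd6 (5.78 and 5.82) were lowest. Gli1, a target gene that reports Hedgehog signalling, had a percentile rank of 45.9 at 6.41 and 6.46.

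Cytokine receptors had 18 of 24 members above the mark and 11 in the top 10%. The gp130 subunit Il6st measured 12.60 and 12.62, and its partners Osmr (oncostatin M receptor) and Lifr (LIF receptor) 11.77 and 11.81, and 10.02 and 10.10. Tnfrsf1a, the main TNF receptor, measured 11.22 and 11.30, and both interferon alpha and gamma receptor pairs (Ifnar1, Ifnar2, Ifngr1 and Ifngr2) were in the top 10%. Il4ra, through which interleukin 4 acts on FAPs in regenerating muscle, measured 10.51 and 10.33. Of the ligands of these receptors, Il6 measured 6.97 and 7.21, at a percentile rank of 55.7, Lif 6.09 and 5.81, Il4 5.54 and 5.50, Osm 4.51 and 4.80, and Tnf 5.07 and 4.79. The leptin receptor Lepr and the lymphocyte receptor Il7r were lowest, at percentile ranks of 8.79 and 8.45.

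Of 40 cytokines and chemokines, 28 lay above the mark (70.0%, near the 68.6% of all genes) and 9 in the top 10%. The highest were Mif (11.85 and 11.82), the monocyte chemoattractants Ccl7 (11.64 and 11.46), Ccl8 (10.46 and 10.56) and Ccl2 (10.37 and 10.08), and the alarmin Il33 (11.22 and 11.22), by which FAPs are known to maintain regulatory T cells in muscle. Ccr2, the receptor of these monocyte chemokines, stood at 3.23 and 3.10, far below the mark. Cxcl12 measured 9.82 and 9.90. Of its receptors, Cxcr4 measured 5.40 and 5.64 and the scavenger Ackr3 7.36 and 7.42. The inflammatory Il1a (3.82 and 3.99) and Il10 (3.35 and 3.70) were lowest.

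G protein-coupled receptors had 20 of 26 members above the mark and 2 in the top 10%, S1pr3, for sphingosine 1-phosphate (10.22 and 10.38), and Lpar1, for lysophosphatidic acid (10.02 and 10.05). The share in the top 10% was 7.69%, near the 8.94% of all genes. Next came the thrombin receptor F2r (9.67 and 9.46) and Lpar4 (9.39 and 9.58). Lowest, besides Ccr2, was the serotonin receptor Htr2b at 4.86 and 4.84.

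Among integrins and other matrix receptors, 30 of 32 lay above the mark and 10 in the top 10%. The highest were the beta 1 chain Itgb1 (11.73 and 11.68), the beta 5 chain Itgb5 (11.34 and 11.28), the alpha V chain Itgav (11.07 and 11.02) and Cdh11, the cadherin of fibroblasts (11.06 and 11.00). Itga11, a collagen receptor of fibroblasts, measured 10.38 and 10.46. Itga4 (5.10 and 4.94) and Itgb6 (4.72 and 4.40), integrins of leukocytes and of epithelia, lay below the mark.

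Genes of the matrix lists, which include proteases and their inhibitors, were frequent among the brightest. The 25 brightest protein-coding genes with an established name held 8 genes of the matrix lists: Fn1, Sparc, Bgn, Dcn, Fbln2, Serping1, Col3a1 and Mmp2. Serping1, a complement inhibitor, entered through the list of proteases and inhibitors, and Fn1, Dcn, Fbln2 and Col3a1 are also on the FAP marker list. Of the 100 brightest, 19 were on the matrix lists, whose 152 measured genes make up 0.762% of all genes. Sparc, a collagen-binding glycoprotein, measured 13.63 and 13.55, and Bgn, the proteoglycan biglycan, 13.58 and 13.58. Others of the 25 were the translation factor Eef1a1 (13.86 and 13.91), the ferritin chains Fth1 (13.70 and 13.77) and Ftl1 (13.03 and 13.08), the actin Actb (13.46 and 13.39), and the insulin-like growth factor binding proteins Igfbp7 (13.16 and 13.18) and Igfbp4 (13.05 and 13.10). The haem-degrading enzyme Hmox1 (13.14 and 13.25) and the metallothioneins Mt1 (13.11 and 13.03) and Mt2 (13.08 and 13.04), genes known to respond to metals and oxidative stress, were also among them, as were Lgals3bp, Vim, Fstl1, Cd81, Rpl21, Plpp3 and Gsn. The remaining gene of the 25, Baiap2l1, is uncertain: its brightest cluster measured 13.86 and 13.87, and its other clusters 11.10 and 11.02, and 6.43 and 5.94.

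Of 32 collagen chains, 31 lay above the mark and 10 in the top 10%. The fibrillar chains Col3a1 (13.04 and 13.03), Col1a2 (12.57 and 12.50) and Col1a1 led, followed by Col6a1 (10.63 and 10.79) of the pericellular type VI network. The basement membrane chains Col4a1 and Col4a2 measured 10.43 and 10.40, and 10.49 and 10.38, while Col4a3, Col4a4 and Col4a6 had percentile ranks of 42.8, 48.4 and 36.3. Type XIV collagen (Col14a1, 10.59 and 10.30) and type XV (Col15a1, 8.91 and 9.68), which mark different fibroblast subsets in mouse tissues, had ranks of 94.9 and 86.5. Col4a6 (5.95 and 5.82) and the growth plate collagen Col10a1 (5.69 and 5.36) were lowest.

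The enzymes that fold, cut and cross-link collagen ranked high as a group. All 19 measured lay in the top 50% of both arrays and 15 in the top 10%. They were led by Pcolce, which speeds the removal of the collagen propeptide (12.88 and 12.96), the cross-linking enzyme Lox (12.85 and 12.60), P4hb, a subunit of prolyl hydroxylase (12.71 and 12.64), and Ppib, a prolyl isomerase (11.68 and 11.70). The lowest were Tgm2 (8.46 and 8.47) and Loxl4 (8.45 and 8.33).

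Matrix glycoproteins had all 42 measured members above the mark and 26 in the top 10%. After Fn1, Sparc and Fbln2 came Efemp1 (12.45 and 12.66) and the nidogens and laminin chains of basement membrane, Nid1 (12.12 and 12.15), Nid2 (11.61 and 11.81), Lamc1 (11.37 and 11.44) and Lama4 (11.18 and 11.31). Lama2, the laminin chain of the muscle fibre's own basement membrane, measured 10.12 and 10.11, and Lama1 5.99 and 5.82. Elastin (Eln) stood at 7.29 and 7.31, a percentile rank of 58.6. The lowest, besides Lama1, was Matn4, a matrilin, at 5.57 and 5.58.

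Proteoglycans divided sharply, with 14 of 19 members above the mark and 9 in the top 10%. Bgn, Dcn, Prelp (12.22 and 12.35) and Prg4, the joint lubricant lubricin (12.04 and 12.27), led. The cartilage genes Acan (5.62 and 5.59) and Hapln1 (3.93 and 3.94) stood near and below the mark, and the lowest but one was the hyaluronan synthase Has3 (4.36 and 4.65). Has2, the other synthase of connective tissue cells, measured 8.94 and 9.17.

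Among proteases and their inhibitors, 36 of 40 lay above the mark and 18 in the top 10%. Serping1, the inhibitor of complement C1 (13.04 and 13.19), Mmp2, gelatinase A (13.02 and 12.99), Timp1, a metalloproteinase inhibitor (13.04 and 12.88), and Ctsb, a lysosomal cathepsin (12.69 and 12.81), were highest. Timp2 (12.69 and 12.71) and Mmp14 (11.93 and 11.80), which together activate Mmp2 at the cell surface, were also in the top 10%, as was Mmp3 (11.70 and 11.75). Timp4 (5.06 and 4.98) and the neutrophil collagenase Mmp8 (3.52 and 3.79) were lowest.

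Promoters with the letters of a TATA box are shown for 5 genes of the top 10%, as named mesenchymal, matrix and ligand genes in which a search of the last 40 bases before the start found the letters TATAAA, printed in capitals. Vim, Postn and Il33 are described above and below. S100a4, a calcium-binding protein of fibroblasts, measured 10.93 and 10.93, and Ecm1, a matrix glycoprotein, 11.00 and 11.24. Sequences are the 50 bases before the start, 5′ to 3′ in the direction of the gene, from RefSeq on GRCm38.p6.

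Vim (chr2:13574261-13574310, plus strand): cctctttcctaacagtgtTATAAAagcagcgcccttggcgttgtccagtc
S100a4 (chr3:90603720-90603769, plus strand): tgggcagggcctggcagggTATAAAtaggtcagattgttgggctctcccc
Ecm1 (chr3:95739570-95739619, minus strand): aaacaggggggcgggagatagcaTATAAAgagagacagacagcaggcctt
Postn (chr3:54361057-54361106, plus strand): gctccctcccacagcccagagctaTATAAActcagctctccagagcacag
Il33 (chr19:29945740-29945789, plus strand): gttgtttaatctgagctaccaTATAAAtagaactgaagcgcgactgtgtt

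In these 5 the motif began 26 to 32 bases before the start. It was found in 41 of 1420 genes of the top 10% with a promoter (2.89%), in 181 of 9414 genes above the mark but not in the top 10% (1.92%), and in 270 of 4780 genes not above the mark (5.65%). GGGCGG on either strand was found in 66.8%, 61.2% and 20.7% of the same sets. CCAAT on either strand was found at similar shares in them: 568 of 1420, 3697 of 9414 (39.3%) and 1794 of 4780 genes (37.5%). Its share over all measured genes with a promoter was 38.8%. These are counts of letters in a window, not of binding sites, and motifs may overlap one another.

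Mesenchymal transcription factors all lay above the mark (75 of 75), 61 of them in the top 50% and 20 in the top 10%. The highest were the nuclear factor I genes Nfix (11.99 and 12.03) and Nfib (11.30 and 11.31), the early B-cell factor Ebf1 (11.59 and 11.72), also known from adipose lineages, and Osr1. Prrx1, the homeobox gene of limb mesenchyme, measured 10.96 and 10.98, Tbx15 10.58 and 10.56 and Meox2 10.49 and 10.50. Zeb1 (10.11 and 10.25), Zeb2 (10.38 and 10.62) and Snai2 (10.07 and 10.24), repressors known from epithelial-mesenchymal transition, were in the top 10% as well. Twist1 (8.18 and 8.26) and Twist2 (8.62 and 8.62) were not. Lowest were Tcf21 (5.87 and 5.66), a marker of some fibroblasts, and Foxp2 (5.59 and 5.69).

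Factors of limb position held middle ranks. Of 40 measured, 31 lay above the mark (77.5%, against 68.6% of all genes). In the top 50% were 10 and in the top 10% 0, against 48.5% and 8.94% of all genes. Above a stricter mark, at the 99th percentile of the receptor clusters, lay 16. Fewer of all genes pass that mark too (their count is given in the last section), so no count at it compares with the 68.6%. The highest were Hoxc9 (8.03 and 8.05), Hoxc10 (7.82 and 8.02), the hindlimb factor Tbx4 (7.79 and 7.73) and Hoxc6 (7.74 and 7.68). The forelimb factor Tbx5 measured 6.41 and 6.19, and the hindlimb factor Pitx1 6.90 and 6.58. Within the Hoxa and Hoxc clusters, paralogues 9 and 10 had ranks of 58.4 to 69.9, while paralogues 11 to 13, which pattern the lower limb and foot, had ranks of 35.0 to 44.9. Hoxa7 (62.3), Hoxc6 (64.6) and Hoxc8 (62.9) ranked within the range of paralogues 9 and 10. The Hoxd cluster differed: Hoxd8 was highest at 60.1, and Hoxd9 (43.1) and Hoxd10 (36.9) stood near Hoxd11 (42.2). Hoxd12 and Hoxd13 had ranks of 22.2 and 27.7. Hoxb genes had ranks of 27.2 to 50.0. Hoxd12 (5.05 and 5.07) and Hoxd1 (4.98 and 5.03) were lowest of the list. The tissue label is hindlimb muscle, and no muscle of another body site was measured for comparison.

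**Figure D3:**
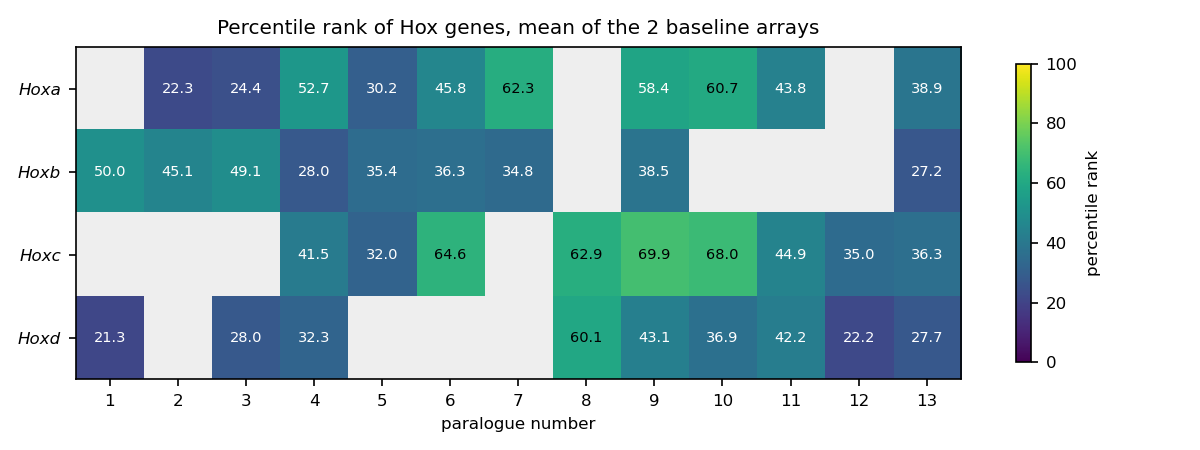
Percentile rank (colour and printed value, mean of the 2 baseline arrays) of each measured Hox gene, by cluster (rows) and paralogue number (columns). Grey cells have no measured gene. The highest ranks are 69.9 for Hoxc9 and 68.0 for Hoxc10, and the lowest 21.3 for Hoxd1.

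Cell cycle genes mostly ranked above the middle, but their share in the top 10% was near that of all genes. All 39 cell cycle genes lay above the mark and 34 in the top 50%, against 68.6% and 48.5% of all genes. Their median percentile rank was 68.7, against 49.8 for all genes. In the top 10% were 3 (7.69%, near the 8.94% of all genes): Cdk4 (11.65 and 11.61), Ccnd2 (11.54 and 11.43) and Pcna (10.00 and 9.95). Ccnd1, the cyclin induced by growth factors, came next at 9.81 and 9.45. Mki67, which is made only in cycling cells, measured 8.74 and 8.45, and the mitotic genes Top2a and Plk1 8.43 and 8.13, and 8.20 and 7.73. In 32 of the 39 genes replicate 1 was higher, with a median difference of 0.24, while over all genes it was higher in 10254 of 19938, with a median difference of 0.0056. The lowest were Cdc6 (6.49 and 6.22) and Ccne2 (6.26 and 6.19).

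Interferon-stimulated genes were high in cells to which no interferon was added. All 24 measured lay above the mark and 10 in the top 10%, with a median percentile rank of 85.4. The highest were Bst2, tetherin (12.38 and 12.05), Oasl2 (11.37 and 11.45), the interferon regulatory factor Irf7 (11.45 and 11.26) and Ifit1 (11.19 and 11.39). The lowest were Oas3 (6.09 and 6.13) and Mx1 (5.68 and 6.06). The baseline arrays were close, with a median absolute difference of 0.11, but the list varied across the 12 arrays more than the typical gene. Its median range was 1.23, against 0.46 for all genes. Rsad2 (viperin) measured 8.32 and 8.35 at baseline and between 7.12 and 10.11 in the other arrays. Cxcl10, an interferon-induced chemokine, measured 7.80 and 7.93 at baseline and reached 10.61 in replicate 1 of pA AMO with PDGF-AA. All groups had received an oligonucleotide by transfection, and its part in these levels cannot be told apart from that of culture.

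Complement genes had 15 of 20 members above the mark and 7 in the top 10%. After Serping1 came Cfb, factor B of the alternative pathway (11.87 and 11.97), the protease C1s1 (11.55 and 11.78) and Clu, the complement inhibitor clusterin (10.45 and 10.70). The chains C1qa, C1qb and C1qc, made mainly by macrophages, had ranks of 37.6, 19.7 and 29.5. Lowest were C6 (4.56 and 4.41) and C3ar1 (4.16 and 4.52).

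Fates open to FAPs were read from their genes at baseline, before any differentiation medium. Adipocyte genes had 23 of 26 members above the mark (88.5%, against 68.6% of all genes). In the top 10% were 3 (11.5%, near the 8.94% of all genes): the lipase Lpl (11.80 and 12.13), the desaturase Scd1 (11.41 and 11.76) and the lipid droplet protein Plin2 (11.03 and 11.33). Fasn, fatty acid synthase, came next at 9.28 and 9.30. The master regulator Pparg measured 8.33 and 9.01. Products of mature fat cells differed between the 2 arrays: Fabp4 measured 7.82 and 9.23, Adipoq (adiponectin) 6.32 and 7.85, and Cd36 6.54 and 8.26. The thermogenic genes Ucp1 (percentile rank 23.1) and Cidea (5.06 and 5.07) lay below the mark.

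Myofibroblast and contractile genes had 22 of 24 members above the mark and 8 in the top 10%, led by Tpm4 (11.86 and 11.68), Myh9 (11.34 and 11.22), Cald1 (10.93 and 10.82) and Postn (10.67 and 10.32), genes of non-muscle contractility and, for Postn, of matrix. The defining gene Acta2, smooth muscle actin, measured 9.86 and 8.98, at a percentile rank of 87.5. Replicate 1 was higher in 23 of 24 members, with a median difference of 0.22. Cnn1 (5.26 and 5.21) and Actg2 (5.39 and 4.90), of mature smooth muscle, were lowest.

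Bone and cartilage genes had 8 of 17 members above the mark (47.1%, against 68.6% of all genes) and 1, the chondrogenic factor Sox9 (10.10 and 10.21), in the top 10%. Next were Col2a1 (7.69 and 7.53), Alpl (7.28 and 7.13) and Sox5 (7.27 and 7.14). The osteoblast factor Sp7 measured 5.19 and 4.96, below the mark, and Matn1 (5.14 and 4.71) and Ibsp (4.18 and 4.24) were lowest.

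Markers of other cells of muscle were examined next. Markers of blood and vessel cells are given first. Endothelial markers had 12 of 18 members above the mark (66.7%, near the 68.6% of all genes; 5 at the stricter mark of the 99th percentile) and 0 in the top 10%: Tek, which mesenchymal cells can express, measured 8.67 and 8.90, Cdh5 7.26 and 7.35, Pecam1 5.51 and 5.77, and Kdr and Emcn (4.49 and 4.60) lay below the mark. Macrophage markers had 8 of 21 above the mark (38.1%; 4 at the stricter mark) and 0 in the top 10%, with Cd68 at 7.44 and 7.22, Lyz2 at 6.92 and 6.92, Adgre1 (F4/80) at 4.03 and 3.98 and Ptprc (CD45) at 4.95 and 4.75. Lymphocyte and granulocyte markers had 7 of 21 above it (33.3%; 1 at the stricter mark), and red blood cell markers 1 of 4 (0 at the stricter mark). Epithelial markers had 11 of 16 above the mark (68.8%, near the 68.6% of all genes), 4 above the stricter mark and 0 in the top 10%. Epcam measured 5.09 and 5.07 and Cdh1 5.95 and 5.84.

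Mural, tendon and nerve markers gave mixed ranks. Of 15 smooth muscle and pericyte markers, 12 lay above the mark, and the highest were Ndufa4l2 (11.39 and 11.55) and Pdgfrb, while Myh11 measured 6.07 and 5.94 and Rgs5 4.76 and 4.96. Tendon markers had 10 of 12 above the mark, with the matrix genes Comp (9.93 and 10.30) and Thbs4 (9.20 and 9.53) high, and the defining genes Scx and Tnmd (6.88 and 7.15) at ranks of 53.3 and 54.5. Of 14 Schwann and nerve markers, 10 lay above the mark (71.4%, near the 68.6% of all genes) and 3 above the stricter mark. Among them the myelin gene Pmp22, also made by fibroblasts, measured 12.62 and 12.68, but Sox10 measured 6.40 and 6.29, S100b 5.89 and 6.12, and Cdh19 3.65 and 4.21.

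The lists of muscle genes had median percentile ranks of 41.2 (satellite cells) and 52.3 (differentiating muscle), against 49.8 for all genes. Their values were unequal between the arrays. Satellite cell markers had 10 of 15 members above the mark (66.7%, near the 68.6% of all genes) and 6 above the stricter mark. Sdc4 (10.78 and 10.80) and Vcam1 (10.40 and 10.24), which mesenchymal cells also make, led, and the defining Pax7 measured 6.61 and 6.48, Myod1 6.89 and 6.46 and Myf5 4.97 and 4.58. Of 38 genes of differentiating muscle and the sarcomere, 35 lay above the mark (92.1%, against 68.6% of all genes). Above a mark set at the 99th percentile of the receptor clusters lay 21, and 0 lay in the top 10% of both arrays (8.94% of all genes). Fewer of all genes pass the stricter mark too, and their count is given in the last section. Acta1, skeletal muscle actin, was the highest at 10.83 and 9.16. The embryonic myosin Myh3 measured 8.82 and 7.20, Myl4 8.91 and 7.68, Actc1 8.93 and 7.57, Tnnt3 8.65 and 7.78, and the muscle regulator Myog 7.13 and 6.23. Adult fast myosin Myh4 (5.47 and 5.04) and the regulator Myf6 (5.25 and 5.29) were lowest. In bulk RNA, fewer cells of a type and less RNA per cell cannot be told apart.

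Muscle and adipocyte genes held 12 of the 30 genes that differed most between the baseline arrays. In all, 30 of 19938 genes (0.15%) differed by more than 1 on the log2 scale, 21 (0.105%) higher in replicate 1 and 9 (0.0451%) higher in replicate 2. Of the muscle genes above, 8 of 38 were higher in replicate 1 by more than 1, 36 of 38 were higher there, and the median difference was 0.74. These were Acta1 (1.68), Myh3 (1.62), Myl1 (1.57), Mylpf (1.38), Myh1 (1.36), Actc1 (1.36), Casq2 (1.36) and Myl4 (1.23). Des, the muscle intermediate filament desmin, measured 8.80 and 7.24 and differed by 1.56. Of the adipocyte genes, 4 of 26 were higher in replicate 2 by more than 1, with 20 of 26 higher there: Cd36 by a replicate 1 minus replicate 2 difference of -1.72, Adipoq of -1.54, Fabp4 of -1.41 and Plin1, the lipid droplet coat of fat cells, of -1.17. The widest difference of all genes was that of Car3, a carbonic anhydrase abundant in fat and slow muscle, at 8.46 and 10.42. Beyond these groups the 12 widest included Bex1 and Try10, by 1.45 and 1.38, both below the mark in replicate 2.

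**Figure D4:**
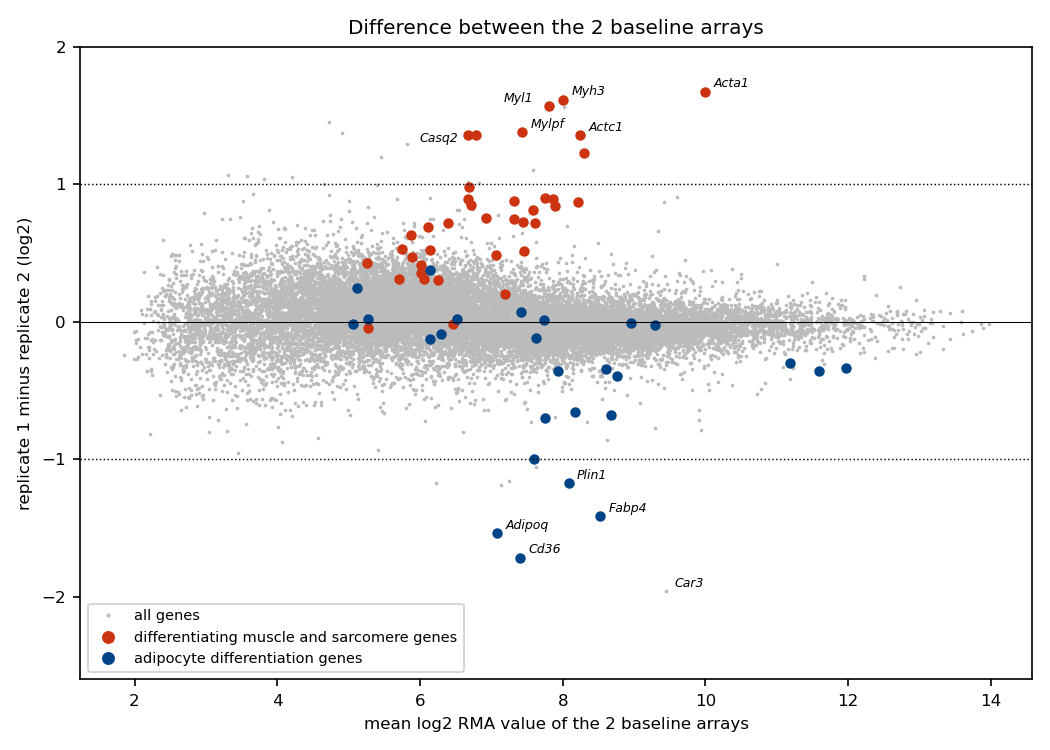
Difference between the baseline arrays (y axis, replicate 1 minus replicate 2, log2) against their mean log2 value (x axis) for 19938 genes. Grey points are all genes, red points the 38 muscle genes and blue points the 26 adipocyte genes, and dotted lines stand at a difference of 1. Acta1 lies at 1.68 and Cd36 at -1.72, while the median absolute difference of all genes is 0.11.

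The median difference over the FAP markers was -0.00, and 0 of 27 differed by more than 1, against 0.15% of all genes. Whether cells of another type, further differentiation in culture or another difference between the pools gave the unequal values was not tested. For reference, 2 of the muscle genes carry the letters TATAAA in the last 40 bases before their start as follows, on the plus strand of GRCm38.p6 in RefSeq, and 5 of 31 muscle genes with a promoter did so (16.1%), against 3.15% of all measured genes, 1 of 18 adipocyte genes (5.56%), 2 of 26 matrix glycoproteins (7.69%), 1 of 26 collagen chains (3.85%), and 0 of 19 ribosomal proteins and 0 of 14 proteoglycans.

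Myh3 (chr11:67078250-67078299): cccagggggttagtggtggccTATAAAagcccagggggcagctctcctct
Myh1 (chr11:67200052-67200101): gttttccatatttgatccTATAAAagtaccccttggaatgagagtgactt

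The same differences were looked for between replicate 1 and replicate 2 of the other 5 groups. For the muscle list the median difference was 0.53 in pA AMO without PDGF-AA, -0.31 in 5'ss AMO without PDGF-AA, 0.08 in control AMO with PDGF-AA, 0.20 in pA AMO with PDGF-AA and 0.32 in 5'ss AMO with PDGF-AA, and the baseline's 0.74 was the widest of the 6. Acta1 differed by 1.07, -0.47, 0.18, 0.54 and 0.65 in these 5 groups, in the same order. For the adipocyte list the medians were -0.22, -0.33, -0.35, -0.23 and 0.07, against -0.32 at baseline. Cd36 was higher in replicate 2 in 4 of the other 5 groups and higher in replicate 1 in 5'ss AMO with PDGF-AA (9.35 and 7.64). Car3 followed the same order, with 11.01 and 9.86 in that group and 6.75 and 10.39 in control AMO with PDGF-AA. The adipocyte list in 5'ss AMO with PDGF-AA thus ran against the other groups.

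**Figure D5:**
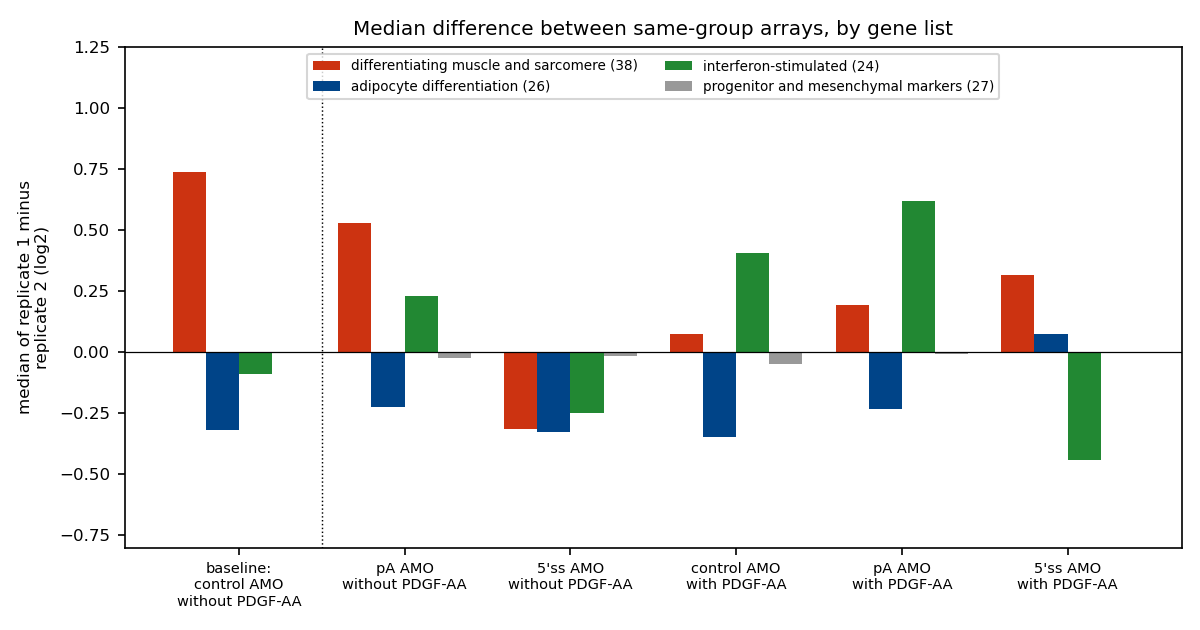
Median of replicate 1 minus replicate 2 (y axis, log2) over the genes of 4 lists in each group of 2 arrays, the baseline at the left of the dotted line. Bars are medians over genes without an error. The muscle list is at 0.74 at baseline and between -0.31 and 0.53 elsewhere, the adipocyte list at -0.32 and between -0.35 and 0.07, and FAP markers stay between -0.05 and 0.00.

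Differences between replicate 1 and replicate 2 of a group extended beyond these lists. In the 10 arrays of the other groups, a limma model with group as a covariate called 6657 of 21789 clusters (30.6%) between replicate 1 and replicate 2 at an adjusted p under 0.05, 3463 higher in replicate 1 (15.9%) and 3194 higher in replicate 2 (14.7%). After repeated quantile normalization 2245 were called (1165 higher and 1080 lower in replicate 1), and with each array centred on its median the split was 2946 and 4106. Without the pair of pA AMO without PDGF-AA the count was 2025, 2652 when the 5'ss AMO pair lacking PDGF-AA was left out, and 2907 for the control AMO pair with PDGF-AA. Of the 6657 clusters, 5401 (81.1%) had the same sign in the baseline arrays, which the model did not use. By level, in the lowest 25% of clusters by mean, 1004 were called higher in replicate 1 and 91 in replicate 2, and in the highest 25%, 35 and 1253.

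The smallest p-value of that model was that of the unnamed G530011O06Rik (-1.17 ± 0.07, replicate 1 minus replicate 2 with the SE, adjusted p = 0.00343 in limma). Next were Tmem267 (-0.74 ± 0.06, adjusted p = 0.00938 in limma), Stox2 (-0.48 ± 0.04), Mpp7 (-0.46 ± 0.04), Kansl1l (-0.51 ± 0.05) and Prkar2b, a regulatory subunit of protein kinase A (-0.71 ± 0.07), all lower in replicate 1. Higher in replicate 1 were Tnfrsf13c, the BAFF receptor (0.48 ± 0.05), Kcnk3 (0.49 ± 0.05) and Tnfaip8l2 (0.49 ± 0.05). Gmfg, also called, measured 5.44 and 5.08 at baseline and was not above the mark, so no size is given for it. Tmem267 measured 7.29 and 7.79 in the baseline arrays, and Prkar2b 6.93 and 7.49, so both ran the same way there. Of the muscle genes 8 of 38 were called higher in replicate 1 and 1 lower, and of the adipocyte genes 2 of 26 higher and 6 lower, against 15.9% and 14.7% of all clusters. Among the adipocyte genes called lower was Pparg (-0.75, adjusted p = 0.0117 in limma). Acta1 (0.39, adjusted p = 0.135) and Cd36 (-1.29, adjusted p = 0.109) did not pass in limma. Called members of the FAP markers were 1 higher and 1 lower of 27.

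Where the baseline stood among the 6 groups was tested last. A limma model of the 6 groups over 12 arrays called 0 of 21789 clusters (0.0%) between the baseline and the mean of the other 5 groups at an adjusted p under 0.05. At an unadjusted p under 0.05 it passed 512 clusters, and with the replicate number as a block 0 adjusted and 1310 unadjusted. With an intensity trend and robust fitting, 5 clusters were called, all lower at baseline. These were the 3 clusters of Pgk1, a glycolytic enzyme, and 1 each of Bnip3 and Fam162a, both known targets of hypoxia.

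The genes with the smallest p-values are given as values, since none passed the adjustment (adjusted p = 1.00 for each in limma). With the replicate number as a block, the adjusted p was 0.472 for each in limma. The SEs below are those of the fit without the block. Egln3, an oxygen-sensing hydroxylase, measured 7.52 and 7.37 at baseline against 7.65 to 8.32 in the other 10 arrays, a difference of -0.59 ± 0.11 (SE). Bnip3 measured 10.88 and 10.84 against 10.92 to 11.58 in its brighter cluster (-0.42 ± 0.08), and -0.48 ± 0.09 was the difference in the other. Fam162a measured 10.33 and 10.20 against 10.49 to 11.06 (-0.46 ± 0.09). The lactate transporter Slc16a3 (-0.37 ± 0.08) and the aldolase Aldoc (-0.45 ± 0.10) had the same sign, as did Hmcn1 (-0.39 ± 0.08) and Ier3 (-0.37 ± 0.08). The test ran over clusters, and the Hmcn1 value is that of its cluster with the smallest p. A brighter cluster of Hmcn1 gave -0.38 ± 0.09, and its further clusters are not given here. Slc35f2 lay below the mark on the baseline arrays (4.03 and 4.24) and between 4.46 and 4.84 on the others, and no size is given for it. Of opposite sign were the chemokine Ccl5, at 9.14 and 9.19 against 8.01 to 9.09 (0.62 ± 0.12), and Agrn, agrin (0.39 ± 0.09).

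Both baseline arrays lay above all 10 others in 160 genes (0.802%) and below all 10 in 194 (0.973%), a count made after the values were seen. Among growth factors 4 of 77 lay above, Sfrp2 (11.46 and 11.53 against 10.47 to 11.32), Dkk2, Ptn and Mstn, the last below the mark, and 2 below, Vegfa (9.64 and 9.72 against 9.75 to 9.98) and Pdgfd (8.18 and 8.03 against 8.27 to 8.71). Among complement genes 2 of 20 lay above, Cfb (11.87 and 11.97 against 11.26 to 11.81) and C2 (9.55 and 9.55 against 8.99 to 9.45), and 0 below. Among mesenchymal transcription factors 3 of 75 lay above, Meox2, Six2 and Twist2, and 1 below, Wwtr1. Of the FAP markers, receptor tyrosine kinases, integrins and interferon-stimulated genes, 0 lay outside the range of the other arrays.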

How the data were processed

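The authors deposited log2 values from RMA. The submitters' processing notes name Affymetrix Expression Console as the software, without a version. RMA corrects background, quantile-normalizes the 12 Affymetrix Mouse Gene 1.0 ST arrays together and summarises probes, so a shift common to all genes of an array is removed. No scanner files were used. The number of arrays limits the precision.

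Of 35556 clusters, 21789 have 1 symbol, 1621 several and 12146 are unnamed here. Gene identifiers of 21698 matched RefSeq on GRCm38.p6, and 0 symbols changed. Ranks are percentiles among the 21789 on each array.

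The members and the gene lists were chosen with earlier results of these data known. Named were the defining markers, the 4 highest and 2 lowest members of a list by mean baseline percentile, members whose baseline arrays differed by more than 1, ligands with their receptors, the 25 brightest and 12 most unequal genes (named, protein-coding), and the 10 smallest p-values of each test. Lists of other cells are given by defining members. Further members named for their known roles were chosen after their values were seen.

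Tests used limma 3.58.1 in R 4.3.3 without trend or robust fitting: a means model of 6 groups (6 residual degrees of freedom), and replicate 1 against 2 within the other 5 groups (4). The models were also run on simulated data with independent noise on each array. Those data lacked the correlation between same-numbered arrays given below, so they do not check the models under it. The Benjamini-Hochberg adjustment ran over 21789 clusters. Levels and ranks had no test. Each group has a replicate 1 and a replicate 2, and the labels leave the meaning of the numbers unstated. After subtraction of group means, arrays with the same number correlated at 0.20 to 0.61 in all 15 pairs of groups, above the criterion of 0.1. The numbers were therefore taken to pair the samples, a hint from the data and not the labels. The means model of 6 groups, whose SEs are printed, left this pairing out. An alternative fit included it, with the replicate number as a block (5 residual degrees of freedom). Tables and figures used Python 3.11.15, pandas 2.3.3 and matplotlib 3.10.9.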

Additional observations from a re-analysis of the deposited data

How the results depend on the processing

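The contrast of the baseline with the other 5 groups called 0 clusters in limma and also with the replicate number as a block (0), after a filter, with all clusters, after centring, after repeated quantile normalization, with array weights, against arrays without PDGF-AA only, against control AMO arrays only and without each array in turn (0 to 0), while an intensity trend with robust fitting called 5. The count between replicate numbers, 6657, was 2245 after repeated quantile normalization and 2025 to 6022 without each array in turn, and the cause was not tested. A difference of over 1 between the baseline arrays, seen in 30 genes, was seen in 590 of 35556 clusters when all were used, against 32 of the 21789 with 1 symbol. For levels in the baseline arrays, genes above the mark numbered 10912 of 19938 with a mark at the 99th percentile and 13586 to 14029 in the other alternatives. Of 476 recounts over lists, 465 were within 1.5 times. The 9 list counts that the stricter mark moved were those of limb factors (16), satellite cells (6), muscle genes (21), endothelial cells (5), macrophages (4), lymphocytes (1), Schwann cells (3), epithelia (4) and red blood cells (0). Percentile ranks shifted by a median of 6.05 when all clusters were ranked, and by at most 28.1 when several clusters of a gene were averaged. The TATAAA count of 41 was 42 over the last 60 bases. With 2 arrays the baseline's own spread is known only as a difference.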
